A study of Mus musculus with 8 samples.

Results

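Hypoxia-response genes, the genes that animal cells switch with oxygen supply, were followed in mouse embryonic stem cells kept in butyrate or in LIF. The 10 genes were Hif1a, Egln1, Egln3, Bnip3, Vegfa, Adm, Ndrg1, Higd1a, Ddit4 and Pdk1. They were taken by the gene name given in the scanner tables, with every non-control probe of each gene kept. This gave 15 probes on 24 spots, of 41174 probes on the array. All 15 passed the filter on dim probes, as did 25661 probes of 17190 genes in all that could be fitted.

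RNA of the mouse embryonic stem cell line R1 was hybridised to 4 Agilent 2-colour whole-genome arrays, each holding a butyrate sample in Cy5 and a LIF sample in Cy3. The butyrate group was 4 samples of R1 cells cultured for 15 passages without LIF in medium holding 0.2 mM of sodium butyrate, an inhibitor of histone deacetylases. The LIF group was 4 samples of the same line in leukaemia inhibitory factor, a cytokine that keeps these cells undifferentiated, on plates without feeders. The labels give no number of passages for the LIF group. Both groups grew on gelatin in the same medium with serum replacement, and the labels name no low-oxygen culture. Every sample came from 1 cell line. The labels call the quadruplicates independent without naming separate derivations, and p-values here therefore cover only the spread among these samples, some of which may be technical.

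Butyrate was always in Cy5 and LIF in Cy3, so that in every ratio below the dye and the treatment cannot be told apart. The presence of butyrate, the absence of LIF and any difference in passages cannot be told apart either. All arrays lay on 1 slide scanned on 1 day. The median scanned signal was 110 to 111.4 in the butyrate channel and 62.8 to 66.0 in the LIF channel. In the butyrate channel 62.7% to 63.9% of non-control spots were well above background, and in the LIF channel 57.9% to 61.2%. Array 2 stood apart before loess normalization, with a median log2 ratio of 0.34 against 0.62 to 0.66 on the other arrays, and after loess the medians were 0.023 to 0.030. Precision is limited by the number of arrays.

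The hypoxia-inducible factor (HIF) is a transcription factor made of an alpha subunit, such as that encoded by Hif1a, and the beta subunit Arnt. When oxygen is present, prolyl hydroxylases of the Egln family modify the alpha subunit, and the von Hippel-Lindau protein Vhl then marks it for degradation. When oxygen is short, the alpha subunit escapes this and the factor binds a short core motif near genes of glycolysis, mitochondrial control and blood vessel growth, some of the hydroxylase genes among them.

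That core motif, ACGTG or GCGTG, was searched on both strands in the 250 bases before each RefSeq transcription start (build GRCm38.p6), for which 9 of the 10 genes had an entry and Ndrg1 had none. Overlapping matches were counted as 1, and the E-box CACGTG holds ACGTG on both strands. All 9 genes held the motif in at least 1 promoter, as did 41.5% of 27025 genes in the table, and 38.6% of 32851 promoters of this length held it. Vegfa and Hif1a held it only in an entry that lies within the gene, and Hif1a had no other entry. The shares were not matched for GC content, which was 38.4% to 86.0% in the promoters of these genes. Below are 4 promoters, printed to show the motif in the 3 genes that were at least 2-fold lower in butyrate and in Adm, which was at least 2-fold higher. Capitals mark the motif, and the sequences run 5′ to 3′ on the gene's strand. They lie at chr7:138909507-138909756 (minus strand) for Bnip3, chr2:71872974-71873223 (plus strand) for Pdk1, chr12:54203875-54204124 (minus strand) for Egln3 and chr7:110627407-110627656 (plus strand) for Adm.
Bnip3: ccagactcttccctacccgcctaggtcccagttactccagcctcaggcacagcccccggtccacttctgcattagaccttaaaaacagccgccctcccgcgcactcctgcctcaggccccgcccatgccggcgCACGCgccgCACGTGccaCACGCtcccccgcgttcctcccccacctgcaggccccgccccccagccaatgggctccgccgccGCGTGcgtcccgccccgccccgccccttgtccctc
Pdk1: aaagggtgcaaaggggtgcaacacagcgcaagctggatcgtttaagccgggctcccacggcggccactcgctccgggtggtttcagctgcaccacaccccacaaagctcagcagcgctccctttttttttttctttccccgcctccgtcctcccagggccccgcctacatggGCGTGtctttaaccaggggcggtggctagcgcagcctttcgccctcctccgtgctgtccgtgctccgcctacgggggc
Egln3: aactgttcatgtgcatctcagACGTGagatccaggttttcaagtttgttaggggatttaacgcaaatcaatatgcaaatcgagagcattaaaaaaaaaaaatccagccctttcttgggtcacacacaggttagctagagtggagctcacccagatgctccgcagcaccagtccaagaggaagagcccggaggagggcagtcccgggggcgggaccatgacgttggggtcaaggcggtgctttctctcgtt
Adm: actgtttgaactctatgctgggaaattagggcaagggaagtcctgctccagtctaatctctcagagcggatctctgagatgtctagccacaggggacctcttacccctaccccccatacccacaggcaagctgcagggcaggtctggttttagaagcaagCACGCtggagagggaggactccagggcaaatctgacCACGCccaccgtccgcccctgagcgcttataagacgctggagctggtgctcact

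The Bnip3 promoter held 4 separate matches, the first base of each lying 117, 108, 99 and 35 bases before the start, and 1.49% of promoters held 4 or more. Adm held 2, at 90 and 54 bases before the start, and 13.5% of promoters held at least 2. Pdk1 held 1 at 78 bases and none in a second promoter entry, and Egln3 held 1 at 229 bases. Among the others, Hif1a, Egln1 and Ddit4 held 2 each, and Higd1a held 1. Vegfa held 2 in the entry that lies within the gene and none in the entry at the gene's 5′ end. A match is a string of letters and not a measured binding site.

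The comparison of butyrate with LIF asked how the RNA profile of the cells differed between these cultures. Among the 10 genes the largest decreases were those of Bnip3, a mitophagy receptor, Pdk1, a kinase that shuts off pyruvate dehydrogenase, and Egln3, a prolyl hydroxylase. They were 4.40-fold, 3.47-fold and 2.85-fold lower in butyrate. The largest increases were those of Ndrg1, a stress- and differentiation-responsive gene, at 3.03-fold, and of Adm, which encodes the vasodilator peptide adrenomedullin, at 2.24-fold. The single Hif1a probe did not pass. In these RNA pools from whole cultures, fewer cells of a type and less RNA per cell cannot be told apart.

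Of the 15 probes, 13 passed an adjusted p of 0.05 by limma, against 72.2% of all tested probes. Higher in butyrate were 5 of the 15, against 39.7% of all tested probes, and lower were 8, against 32.5%. At least 2-fold higher were 2, against 4.1%, and at least 2-fold lower were 4, against 1.61%. The median log2 ratio of butyrate over LIF was −0.28 over the 15 probes and 0.03 over all tested probes. The median absolute log2 ratio was 0.59 over the 15 and 0.23 over all. With each gene taken by its brightest probe, 9 of 10 genes passed, 3 higher and 6 lower, against 74.3% of all genes, 41.3% higher and 33% lower. Among the 6 lower genes, Higd1a had probes that passed in opposite directions. Vegfa and Ddit4, also among the 6, turned positive under another scaling of the arrays, given below. These 10 genes were chosen with results of these arrays known, so the counts describe them and carry no test of their own.

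**Figure D1:**
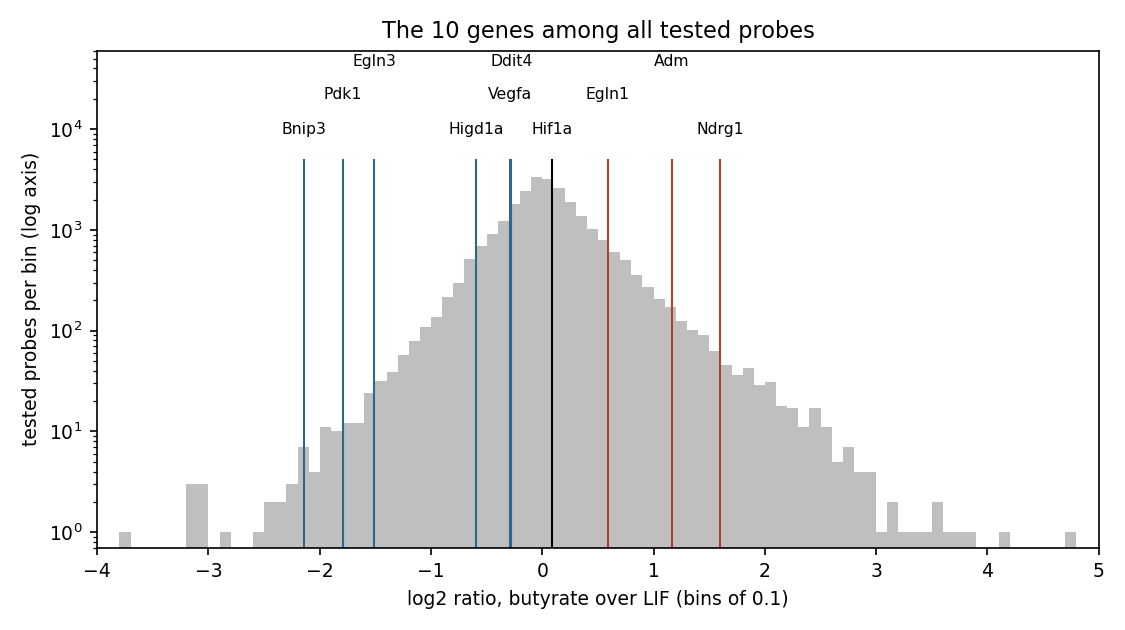
Histogram of the log2 ratio of butyrate over LIF (mean of 4 arrays, horizontal axis, bins of 0.1) of all tested probes, with the number of probes per bin on a log axis. Coloured lines mark the brightest probe of each of the 10 genes, red for passed and higher in butyrate, blue for passed and lower, black for not passed. Bnip3, Pdk1 and Egln3 lie in the left tail, Adm and Ndrg1 in the right tail, and Hif1a near the centre.

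The channel levels of the 2 groups did not overlap for 12 of the 15 probes, against 65.3% of all tested probes. Butyrate was above LIF for 5 of the 15, against 36.8% of all, and below for 7, against 28.5%. By the brightest probe 8 of the 10 genes had no overlap, against 68% of all genes. The 3 probes with overlap were the Hif1a probe, 1 of 3 Vegfa probes and the Ddit4 probe. The SD of the log2 ratio over the 4 arrays ranged from 0.0215 to 0.216 among the 15 probes, with a median of 0.0924, and the median over all tested probes was 0.0814. Levels are normalized log2 intensities, and those of different probes cannot be set against each other.

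**Figure D2:**
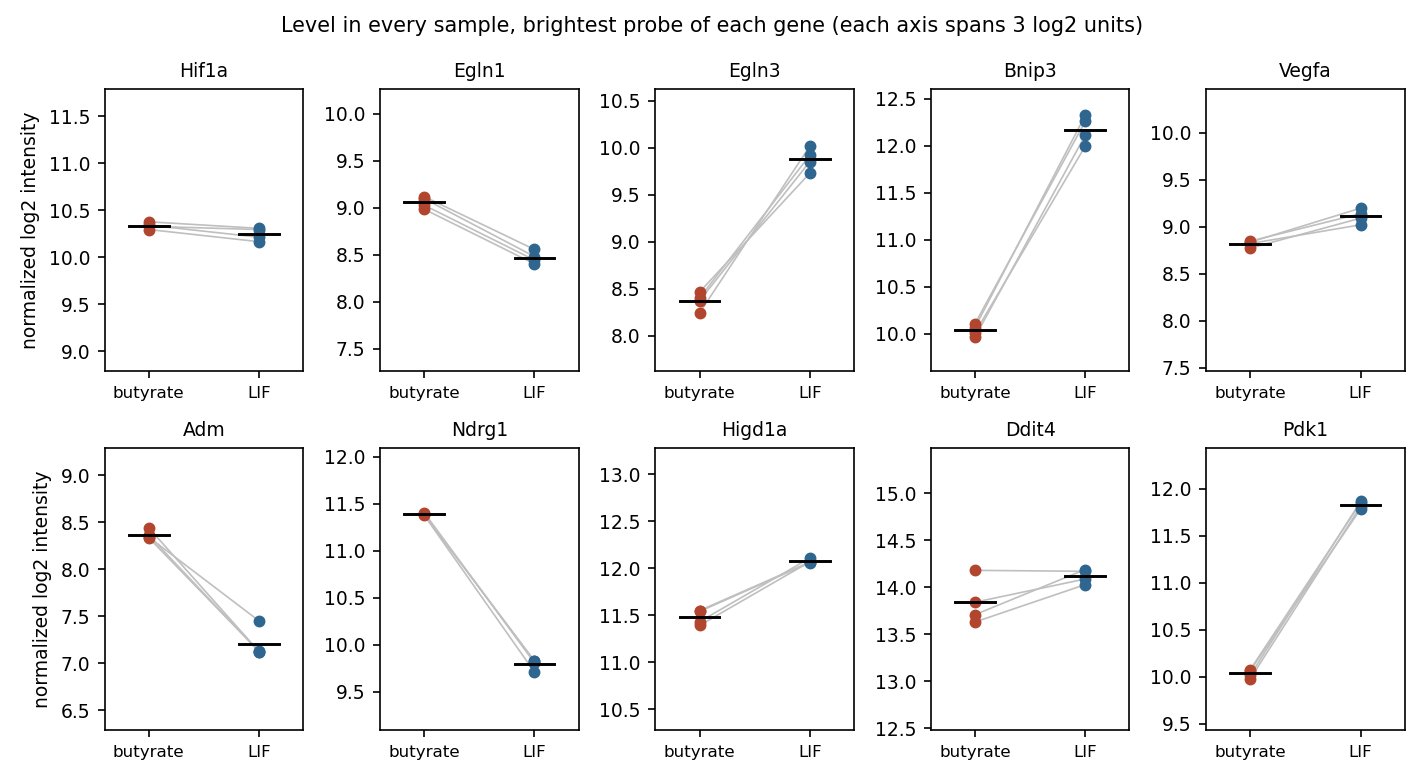
Normalized log2 intensity (vertical axis) of the brightest probe of each gene in the 4 butyrate samples (red, left) and the 4 LIF samples (blue, right). Grey lines join the samples of 1 array, black bars are means, and every axis spans 3 log2 units. The groups overlap for Hif1a and Ddit4 and lie farthest apart for Bnip3.

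The 2 oxygen-sensing hydroxylases moved in opposite directions, and the factor they act on did not pass. Hif1a levels were 10.30, 10.34, 10.38 and 10.33 in the butyrate samples of arrays 1 to 4, against 10.17, 10.21, 10.31 and 10.30 in the LIF samples. The ranges overlapped, although the butyrate sample was the higher on each array. The log2 ratio was 0.09 ± 0.05 (SD, n = 4 arrays), and the adjusted p of 0.0550 missed the threshold. With the scanner software's log ratio the value was 0.00017 and with the authors' value table −0.0028.

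Egln1 encodes the main hydroxylase acting on HIF alpha subunits. Its brighter probe A_52_P172619 read 8.99, 9.03, 9.12 and 9.10 in butyrate, against 8.40, 8.44, 8.56 and 8.48 in LIF, with every butyrate sample above every LIF sample. That is 1.50-fold higher in butyrate (log2 ratio 0.59 ± 0.02, adjusted p = 1.50e-06). The dimmer probe A_51_P186899 was also higher in the 4 butyrate samples, at 7.23 to 7.50 against 7.10 to 7.16, but only by 1.15-fold (0.20 ± 0.11, adjusted p = 0.00570). The ratios of the 2 probes differed by 0.39 ± 0.12 and in the same direction on 4 of 4 arrays, where the smallest p an exact sign-flip test of 4 arrays can give is 0.125.

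Egln1 lies on chromosome 8, whose 1209 tested probes had a median log2 ratio 0.24 above that of the other autosomes. Chromosomes 11 and 19 stood 0.18 and 0.14 above the others, and the next autosome, chromosome 6, stood 0.013 above. Relative to the median of chromosome 8, the brighter Egln1 probe was at 0.33 and the dimmer probe at −0.06. The part of the chromosome-wide shift in the Egln1 ratio was not tested. None of the other 9 genes lies on chromosomes 8, 11 or 19. Of the pathway genes named below, Hmox1, Vegfc, Ndrg4 and Nrp1 lie on chromosome 8. Aldoc, P4ha2, Stc2 and Pdk2 lie on chromosome 11, and Hif1an and Pgam1 on chromosome 19. Their ratios are given without regard to these shifts.

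Egln3, whose RNA is strongly induced by hypoxia in many cell types, went the other way. Its levels were 8.37, 8.46, 8.40 and 8.24 in butyrate, against 9.85, 9.73, 9.92 and 10.02 in LIF. All butyrate samples were below all LIF samples. The gene was 2.85-fold lower (log2 ratio −1.51 ± 0.21, adjusted p = 4.90e-07), and the ratio ran from −1.78 on array 4 to −1.27 on array 2.

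The genes for mitochondrial proteins held the largest decreases of the set. Bnip3 encodes an outer-membrane protein of mitochondria that recruits the autophagy machinery. Its levels were 9.96, 10.01, 10.11 and 10.07 in butyrate, against 12.11, 12.00, 12.26 and 12.32 in LIF. The groups were far apart on each array, with ratios from −2.26 to −1.99. Bnip3 was 4.40-fold lower in butyrate (log2 ratio −2.14 ± 0.11, adjusted p = 1.62e-08), and 0.0818% of all tested probes had a ratio this low or lower.

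Pdk1 phosphorylates pyruvate dehydrogenase and so keeps pyruvate out of the mitochondrial citrate cycle. Probe A_51_P406429 read 9.98, 10.06, 10.07 and 10.01 in butyrate, against 11.81, 11.78, 11.85 and 11.86 in LIF. Probe A_52_P277654, designed on another transcript record, read 8.81, 8.87, 8.83 and 8.76 in butyrate, against 10.55, 10.54, 10.61 and 10.71 in LIF. Neither probe had overlapping groups. They gave 3.47-fold and 3.44-fold lower levels (log2 ratios −1.79 ± 0.06 and −1.78 ± 0.12, adjusted p = 1.31e-08 and 3.78e-08), and their ratios differed by −0.01 ± 0.08.

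Higd1a, a small inner-membrane protein of mitochondria tied to the respiratory chain, gave opposite results by probe. The brighter probe A_52_P458697 read 11.54, 11.39, 11.43 and 11.55 in butyrate, against 12.06, 12.07, 12.11 and 12.07 in LIF, and was 1.51-fold lower (−0.60 ± 0.09, adjusted p = 5.39e-06). The dimmer probe A_51_P263310 read 7.51, 7.45, 7.49 and 7.56 in butyrate, against 7.09, 7.26, 7.09 and 7.08 in LIF, and was 1.30-fold higher (0.37 ± 0.13, adjusted p = 0.000238). Both probes separated the groups on all arrays, in opposite directions, and both carry the same transcript accession in the scanner tables. Their ratios differed by −0.97 ± 0.09. The direction of Higd1a is therefore uncertain here.

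**Figure D3:**
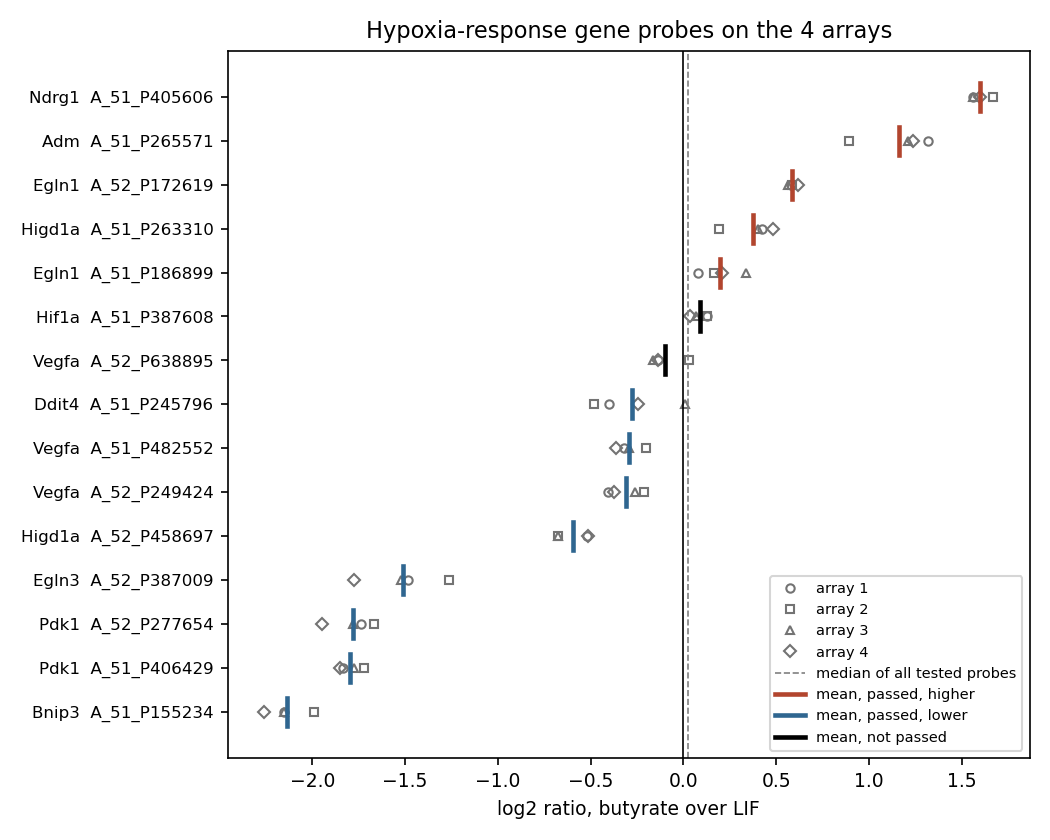
Log2 ratio of butyrate over LIF (horizontal axis) of the 15 probes of the 10 genes, each row 1 probe. Grey symbols are the 4 arrays, coloured bars the mean (red passed and higher, blue passed and lower, black not passed), and the dashed line the median of all tested probes. The 2 Pdk1 probes lie together at −1.79 and −1.78, while the 2 Higd1a probes lie on opposite sides of 0.

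The genes for secreted vessel signals differed in direction. Vegfa encodes the main growth factor of endothelial cells, and it was read by 3 probes. Probe A_51_P482552, printed as 10 spots per array, read 8.77, 8.82, 8.85 and 8.83 in butyrate, against 9.09, 9.02, 9.14 and 9.20 in LIF, and was 1.23-fold lower (−0.29 ± 0.07, adjusted p = 0.000220). Within an array the SD of the log2 ratio over its 10 spots was 0.0381 to 0.0558, below the SD of 0.0687 between arrays. Probe A_52_P249424 was 1.24-fold lower (−0.31 ± 0.09, adjusted p = 0.000277), with butyrate levels of 7.41 to 7.57 below LIF levels of 7.75 to 7.89. The third, A_52_P638895, had overlapping groups, a ratio of −0.10 ± 0.09 and an adjusted p of 0.0638.

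Adm levels were 8.44, 8.34, 8.34 and 8.36 in butyrate, against 7.13, 7.45, 7.13 and 7.13 in LIF. The groups did not overlap, and the LIF sample of array 2 stood above the other LIF samples. Adm was 2.24-fold higher in butyrate (log2 ratio 1.16 ± 0.19, adjusted p = 1.22e-06). Its scanned LIF signal was dim, at 78.2 to 86.2, against 375 to 409 in butyrate, and the offset added before taking logs understates such a fold. Adm was 2.68-fold higher with an offset of 16 and 2.59-fold higher with no background correction. It was 3.52-fold higher with the scanner software's log ratio and 3.51-fold with the authors' value table. The part of the offset in these differences was not tested.

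Ndrg1 and Ddit4 are stress-response genes outside these groups. Ndrg1 levels were 11.39, 11.38, 11.39 and 11.41 in butyrate, against 9.83, 9.71, 9.82 and 9.81 in LIF. All butyrate samples lay above all LIF samples, with an SD of 0.012 against 0.056. Ndrg1 was 3.03-fold higher (log2 ratio 1.60 ± 0.05, adjusted p = 1.88e-08), and 98.9% of tested probes had a lower or equal ratio. Ddit4, an inhibitor of the growth kinase mTORC1, read 13.63, 13.71, 14.18 and 13.84 in butyrate, against 14.03, 14.19, 14.17 and 14.09 in LIF. The groups overlapped, with the butyrate sample of array 3 among the LIF values. The log2 ratio was −0.28 ± 0.22 (adjusted p = 0.00900), from −0.48 on array 2 to 0.01 on array 3, and without array 1 the adjusted p was 0.0521.

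The size and, for weak changes, the direction depended on how the arrays were scaled. When log ratios were only centred on the array's median, without loess, all tested probes had a median of 0.37 and 92.0% of passing probes were higher in butyrate, against 55.0% with loess. The share was 44.9% with the authors' value table. Under median centring Vegfa (0.26, 0.08 and 0.43 for its 3 probes) and Ddit4 (0.22) turned positive, of which the third Vegfa probe passed (adjusted p = 0.0167), the brighter Higd1a probe was at −0.02, and Hif1a passed at 0.69. Relative to the median of all probes in that scaling, the Vegfa probes stood at −0.10, −0.28 and 0.06, Ddit4 at −0.15, Higd1a at −0.39 and Hif1a at 0.32. Bnip3, Pdk1 and Egln3 stayed lower, by 2.93-fold, 2.30-fold and 1.92-fold, and Ndrg1, Adm and Egln1 stayed higher, by 4.57-fold, 3.02-fold and 2.19-fold. Relative to the same median, Bnip3, Pdk1 and Egln3 stood at −1.92, −1.57 and −1.31, and Ndrg1 and Adm at 1.82 and 1.22. The brighter Egln1 probe stood at 0.76 and the dimmer at 0.12.

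**Figure D4:**
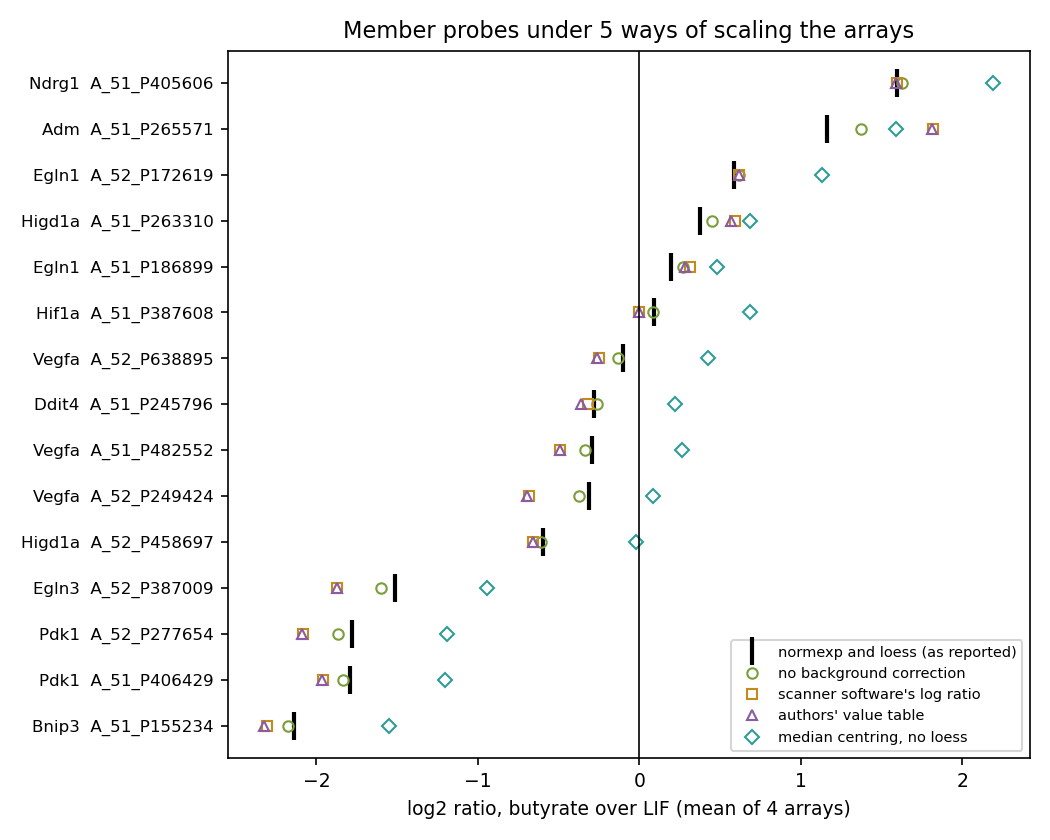
Mean log2 ratio of butyrate over LIF (horizontal axis) of the 15 probes under 5 ways of scaling the arrays, each row 1 probe. Black bars are the values reported here, and open symbols the alternatives. Median centring moves every probe to the right, and the scanner software's ratios and the authors' value table widen the fall of Egln3 and the rise of Adm.

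The other genes of the pathway moved in both directions. Of 88 such genes in 4 lists, 83 were tested, and 15 did not pass. Of the 83, 32 rose and 36 fell, against 41.3% and 33% of all genes, and the median log2 ratio was −0.05 against 0.03 over all genes. At least 2-fold changes were seen for 12 higher and 6 lower, against 4.97% and 1.97% of all genes. These lists, like the 10 genes, were drawn up with earlier results of these arrays known. Under median centring without loess 47 were higher and 8 lower, and of all 25661 tested probes 14222 were higher and 1242 lower. The counts under median centring in the lists and markers below stand against that same background. Lox, Cxcr4, Ramp1 and Nrp1, counted as higher, passed the filter on dim probes through the butyrate channel alone. With only probes well above background on 4 of 4 arrays in both channels, 29 were higher and 36 lower.

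Among 15 HIF subunits and regulators, 4 rose and 7 fell. Under median centring 7 passed as higher and none as lower, beside 14222 and 1242 of all 25661 tested probes. Cited2, a HIF-induced inhibitor that competes for the coactivators of HIF, was 3.12-fold higher (1.64 ± 0.06). Vhl was 1.28-fold higher (0.36 ± 0.03), and Eloc, a subunit of its ubiquitin ligase, 1.32-fold higher (0.40 ± 0.11). Arnt, the beta subunit, fell by 0.53 ± 0.14 on the log2 scale, though its 2 other probes were at 0.08 and median centring gave 0.06. Egln2, the remaining prolyl hydroxylase of HIF, was at −0.47 ± 0.08 (0.11 under median centring), and Epas1, the alpha subunit of HIF-2, at −0.32 ± 0.24 (−0.13), and neither passed under median centring. The ligase subunits Cul2 (−0.59 ± 0.14, 0.01 under median centring) and Rbx1 (−0.53 ± 0.15, −0.02) fell by their brightest probes, while another probe of each passed as higher. Hif1an, the asparagine hydroxylase that blocks HIF activity, was at 0.03 ± 0.03 and did not pass, while its 2 other probes were at 0.09 and 0.39. Under median centring it passed at 0.58 (adjusted p = 0.00338), and with the scanner software's log ratio at −0.10 (adjusted p = 0.0461).

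All 17 genes of glycolysis and glucose uptake passed, 5 higher and 12 lower, and under median centring 5 passed as higher and 4 as lower. The glucose transporters Slc2a1 and Slc2a3 were 2.75-fold and 2.64-fold higher (1.46 ± 0.03 and 1.40 ± 0.12), the second with another probe at 0.20. Pfkfb3, which makes an activator of phosphofructokinase, was 2.12-fold higher (1.09 ± 0.07), with another probe at 0.05. The enzymes of the pathway itself fell most for Aldoc, an aldolase (−1.59 ± 0.12, another probe at −0.07), Pfkl, a phosphofructokinase (−1.17 ± 0.08), and Eno1, an enolase (−1.05 ± 0.03). In this list the Aldoa probe was saturated in both channels and the Pgam1 probe in the butyrate channel. Their ratios are therefore limited by the range of the scanner. With saturated spots left out, the pathway genes beyond the 10 that were lower numbered 34, against 36.

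Of 29 other HIF targets tested, 15 rose and 6 fell, and under median centring 23 passed as higher and 1 as lower. Hmox1, a haem-degrading enzyme, was 6.91-fold higher (2.79 ± 0.21), and P4ha2, a collagen prolyl hydroxylase, 4.57-fold (2.19 ± 0.09). Stc2, a secreted glycoprotein (−0.92 ± 0.12), Kdm3a, a histone demethylase (−0.83 ± 0.05), and Gys1, a glycogen synthase (−0.55 ± 0.13), held the largest decreases, of which Kdm3a and Gys1 did not pass under median centring. Bnip3l, the close relative of Bnip3, was at 0.02 ± 0.08 and did not pass, while its other probe passed at −0.14. Under median centring it passed at 0.60 (adjusted p = 0.0132). Bhlhe41, Stc1 and Epo were too dim to be tested.

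Relatives and partners of the 10 genes counted 8 higher and 11 lower of 22 tested, and 12 and 3 under median centring. Flt1, a receptor for Vegfa, was 4.20-fold higher (2.07 ± 0.14), while Vegfc, a relative of Vegfa, was 2.59-fold lower (−1.37 ± 0.09). Among the pyruvate dehydrogenase kinases, Pdk4 was 2.04-fold lower (−1.03 ± 0.14) and Pdk2 1.23-fold lower (−0.30 ± 0.07, not passing under median centring). With the scanner software's log ratio Pdk4 was 3.25-fold lower, and with the authors' value table Pdk4 was 3.29-fold and Pdk2 1.87-fold lower. Pdk3 was at 0.12 ± 0.10 and did not pass, and its other probe passed at −0.14. Under median centring Pdk3 passed at 0.71 (adjusted p = 0.00282). Ndrg2 was 3.04-fold lower (−1.61 ± 0.13) and Ndrg4 1.84-fold higher (0.88 ± 0.05, another probe at −0.04). Ddit4l, the relative of Ddit4, was 1.86-fold higher (0.90 ± 0.11).

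**Figure D5:**
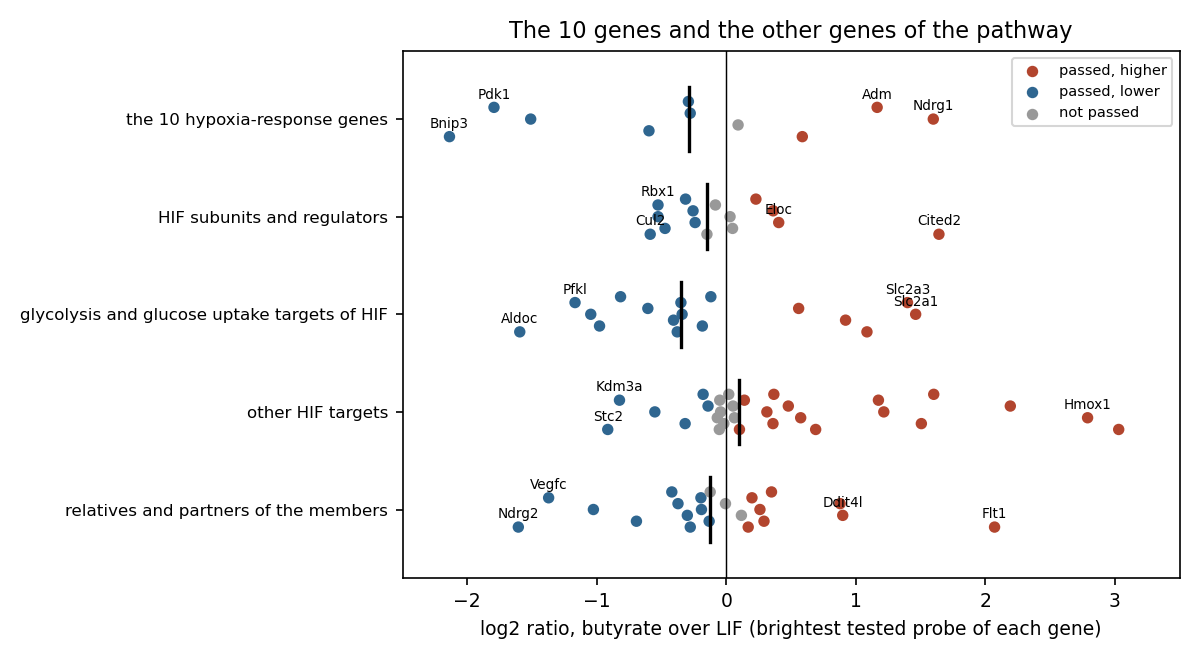
Log2 ratio of butyrate over LIF (horizontal axis) of the 10 genes and of the 4 lists of other pathway genes, each point 1 gene by its brightest tested probe, in red where passed and higher, blue where passed and lower and grey where not passed. Black bars are list medians, vertical scatter within a row has no meaning, and some genes near the ends of a row are named. Every row holds genes on both sides of 0.

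Markers of cell types moved beside these genes. Of 10 embryonic stem cell markers, 8 were lower and Nanog was higher, and their summed linear level was 109596 to 120086 in butyrate samples, against 158672 to 168802 in LIF samples. Without Dppa5a, counted as lower although saturated in both channels of the 4 arrays, the sum was 57903 to 65183 against 80007 to 85193. Under median centring 4 were lower and 3 higher. Of 12 trophoblast markers, 11 were tested and all were higher, with a sum of 134058 to 137129 in butyrate, against 33141 to 37670 in LIF, where Krt8 and Krt18 were saturated in butyrate. Without those 2 the sum was 30665 to 32250 against 6906 to 7754. Fibroblast markers were higher for 7 and lower for 2 of 9 tested, with sums of 10507 to 10922 in butyrate against 2077 to 2394 in LIF, and without Col1a1 3839 to 4003 against 1723 to 1952. Endoderm markers were higher for 8 of 9, with sums of 16696 to 17846 in butyrate against 4722 to 4940 in LIF. Most of that was Sparc and Col4a1, genes of the extracellular matrix, and the other 7 summed to 1752 to 1809 against 1093 to 1266. Of 6 endothelial markers tested, 2 were higher and 2 lower, with sums of 2250 to 2412 in butyrate against 1290 to 1360 in LIF. Flt1, given above among the pathway genes, held that difference, and the other 5 summed to 952 to 1015 against 947 to 1059. The genes left out of these sums were chosen after their values were seen. Each sum follows its brightest probes most. In butyrate these were Zfp42 (mean level 15.04) once Dppa5a was left out, and Krt19 (14.13) once Krt8 and Krt18 were. Tpbpa, Lum, Ttr, Tie1 and Emcn were too dim to be tested. Elf5, Dcn, Cdh5 and Afp, counted as higher, passed the filter on dim probes through the butyrate channel alone. With the scanner software's log ratio 10 of the 11 trophoblast markers were higher. The part of these markers' cell types in the changes of the hypoxia-response genes was not tested.

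By the smallest Euclidean distance between the log2 ratios of the 4 arrays, the genes most like Ndrg1 were Loxl2 (distance 0.0821, mean log2 ratio 1.60), Amotl2 (0.0941, 1.59) and Specc1 (0.140, 1.59). Those most like Bnip3 were Tfcp2l1 (0.151, −2.13), Pycard (0.196, −2.05) and Eras (0.216, −2.17). Loxl2 was also on the list of other HIF targets.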

How the data were processed

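RNA of 4 butyrate and 4 LIF samples was read on 4 arrays, per the labels, and the 8 deposited scanner files were 4 distinct files. Per the submitters' processing notes, Agilent Feature Extraction 9.1 was used. Per the file headers, each spot has a mean and a background intensity in either channel and a log10 ratio made from background-subtracted, dye-normalized signals. The authors' value table holds log2 values per sample, by a tool not given in the sources used here.

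Background was corrected by normexp (offset 50) on the mean signal and median background in limma 3.58.1 under R 4.3.3, followed by loess with control spots at weight 0. Each array had 43379 non-control spots, and 14 flagged ones over the 4 arrays were dropped before a probe's spots were averaged. Tested probes were well above background on at least 3 of 4 arrays in either channel. lmFit and eBayes tested the 4 log2 ratios against 0, with Benjamini-Hochberg adjustment over all 25661 tested probes. Channel levels were taken after loess and Aquantile.

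Taking ratios within arrays makes the array a replicate block. The pairing comes from the array that samples of a number share, and their deviations from the group means correlated at 0.152 to 0.303 (4 pairs), against −0.223 to 0.0906 for other numbers.

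The 10 genes, the lists and the markers were chosen with earlier results of these data known. Named are all 15 probes of the 10 genes, the 3 largest increases and decreases of each pathway list that passed with 1 sign on 4 arrays, Slc2a1, Epas1, Arnt, Vhl, Egln2, Hif1an, Bnip3l and Pdk2 to Pdk4, and the 3 genes most like the member with the largest increase and that with the largest decrease. Some genes that this rule picks are not reported here. Markers and other genes named were chosen after their values were seen.

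The steps were tested on simulated data. Of 50 probes changed at each size, 10 were recovered at 1.2-fold, 45 at 1.5-fold, 47 at 2-fold and 50 at 3-fold. Of 25461 unchanged probes 14 were called. So few of the probes were changed that the simulation did not test loess under a broad shift. Promoter sequences were taken from RefSeq. Alternatives covered the background correction, the normalization, the filters, the variance model, the block, each replicate left out, the chromosome median and the authors' value table. Plots were made in Python 3.11.15 with matplotlib 3.10.9.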

Additional observations from a re-analysis of the deposited data

Results flagged for a closer look

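Among 45 groups of 4 values checked for the 15 probes, 3 held a value that stood apart from the rest by Dixon's criterion, and chance gives about 1 in 20. All 3 lay on array 2, the array whose median log2 ratio before loess was lowest. The log2 ratio of Vegfa probe A_52_P638895 was highest on array 2, at 0.0289, and without that array the probe passed (−0.15, adjusted p = 0.0131). The LIF level of Adm was highest on array 2, at 7.4516, where its scanned LIF signal was the lowest of the 4, at 78.2. The LIF level of the dimmer Higd1a probe A_51_P263310 was highest on array 2, at 7.2562, where its scanned signal was also the lowest, at 79.3.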

How the results depend on the processing

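Bnip3, Egln3, both Pdk1 probes, Adm, Ndrg1, the brighter Egln1 probe and the dimmer Higd1a probe passed in the same direction in all 15 alternatives that gave a p. Over 240 probe values under alternatives, 222 kept direction and side of the threshold, or moved by less than the SD where no test was made. Alternatives that changed only the filters, the saturated spots, the variance model or the block left the log2 ratios of the 15 probes as they were. In those alternatives no direction could change. With median centring and no loess, the probes of the 10 genes that were lower numbered 4, against 8, and the other pathway genes that were lower 8, against 36. Of all 25661 tested probes, 1242 were lower in that setting, against 8343, and 14222 were higher, against 10195. Vegfa (0.26, 0.084 and 0.43 for its 3 probes) and Ddit4 (0.22) then reversed, and the cause was not tested. Hif1a reversed with the authors' value table (−0.0028), and the dimmer Egln1 probe reversed when set against the median of chromosome 8 (−0.056). Hif1a passed in 3 of 15 alternatives, and the dimmer Egln1 probe did not pass with the authors' table (adjusted p = 0.0611). Counting genes by their brightest probe left 3 higher, against 5 probes. The dimmer Egln1 and Higd1a probes, both higher, are then not counted, and Higd1a counts as lower.

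With no replicate block the counts were 5 higher and 8 lower among the 15 probes and 31 higher and 36 lower among the other pathway genes, and no probe of the 10 genes changed its side. With each replicate left out, the probes counted 5 to 6 higher, 7 to 9 lower, 2 at least 2-fold higher and 4 at least 2-fold lower, and the other pathway genes 30 to 32 higher and 33 to 37 lower. Without replicate 1 Ddit4 did not pass, without replicate 2 Vegfa probe A_52_P638895 passed, and without replicate 4 Hif1a passed (adjusted p = 0.0497). Signals near background limit Adm, the dimmer Higd1a probe and the dimmer Egln1 probe.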
